A study of Mus musculus with 24 samples.

Results

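RNA-Seq of the lung compared aged mice that received house-dust mite (HDM) together with dexamethasone (Dex) with aged mice given saline, and so addressed how far the lung under Dex differed from lung without allergen. The comparison holds 12 of the 24 samples of the series, 7 labelled HDM+Dex and 5 labelled Saline. The samples were taken by their treatment and age labels, and the comparison was chosen with earlier results of these data known. It was made for the 17744 of 23891 genes that averaged 1 CPM or more (counts per 1000000 counts on genes) over all 24 samples. All 12 mice were C57BL/6 mice of 80 wk by the labels and 80 to 82 wk by the methods, which used wild-type mice of both sexes, and the tissue was the left lobe of the lung. HDM+Dex mice received 50 µg of HDM intranasally in 40 µL, in 3 sensitization doses from day 1 and then in 3 challenge phases of 3 doses each between days 11 and 27. Dex, a synthetic glucocorticoid, was injected into the peritoneum at a dose of 4 mg/kg, 72 h apart, while the challenges went on, and lungs were collected 24 h after the final challenge. For saline mice the labels give saline and no HDM or Dex. No group with Dex and without HDM was analysed here, so an effect of Dex itself and a residue of the HDM response cannot be told apart in a gene that differs from saline. A further 7 aged mice with HDM alone served for reference.

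HDM is an aeroallergen that drives type 2 immunity in the airways. T helper 2 cells and innate lymphoid cells release interleukins 4 and 13, which signal through the transcription factor STAT6, turn airway secretory cells into mucus-producing goblet cells and bring macrophages into an alternatively activated state with chitinase-like proteins and resistin-like alpha. Glucocorticoids bind the glucocorticoid receptor (Nr3c1), which switches on genes such as Tsc22d3, Fkbp5, Per1, Zbtb16 and Klf9 through response elements in DNA and restrains inflammatory transcription factors.

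Some properties of the libraries bear on all values below. The estimated number of reads (in units of 1000000) ran from 10.8 to 21.1 in HDM+Dex samples and from 14.3 to 28.3 in saline samples. The abundant 7SL RNA of the signal recognition particle (genes Rn7s1 and Rn7s2) took 11.3 to 31.6% of CPM in HDM+Dex samples, with replicates 1, 2, 3 and 6 above 25%, and 9.92 to 18.1% in saline samples. Its mean share was 22.6% ± 8.73 (SD, n = 7) against 12.2% ± 3.41 (SD, n = 5; difference of 10.4 percentage points, two-sided exact permutation test over 792 splits, p = 0.0278, adjusted p = 0.101 over 4 sample measures). A larger share of 7SL RNA lowers the CPM of all other genes, and the median log2 fold change over all genes was −0.19. Each result was therefore also computed after median-of-ratios rescaling of the samples, which moved this median to −0.01. By Xist and Ddx3y, HDM+Dex replicates 1 to 3 were male and replicates 4 to 7 female, while saline replicates 1, 2 and 5 were male and replicates 3 and 4 female. The 7 mice with HDM alone were 5 males and 2 females, and 5 of these 7 samples had a 7SL share above 25%. Sex and 7SL share are therefore not balanced in comparisons with HDM alone. HDM+Dex replicate 7 stood apart from the other treated samples, with 28.1 CPM of Clca1, 10.7 CPM of Fcgbp and 0.197 CPM of Itln1. Lung markers were abundant in all 12 samples, with Sftpc at 1291 CPM or more, Scgb1a1 at 438 CPM or more and Ager at 391 CPM or more after HDM+Dex. Heart muscle, which lines pulmonary veins and can be carried over from the heart, differed between lobes, with Myh6 at 415 to 774 CPM in saline and 24.3 to 897 CPM after HDM+Dex. In whole lung, fewer cells of a type and less RNA per cell cannot be told apart.

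Between HDM+Dex and saline, 335 genes differed (1.89% of the 17744 tested; limma, Benjamini-Hochberg adjusted p under 0.05), 79 higher (0.445%) and 256 lower (1.44%). After rescaling 167 genes differed (0.941%), 87 higher (0.490%) and 80 lower (0.451%), so that the excess of lower genes was not present on that scale. On both scales 143 genes were called, 64 of them higher (0.361%) and 79 lower (0.445%). Without HDM+Dex replicate 7 the number of genes called was 772, 129 higher and 643 lower, without replicate 4 it was 688, and without saline replicate 3 it was 66. The 79 higher genes had a median difference of 1.34 on the log2 scale and a median level of 4.06 CPM in saline, and 14 of them had a saline mean below 1 CPM. The 256 lower genes had a median difference of 0.84 in size and started from a median of 50.6 CPM. Groups did not overlap in 425 genes (2.40%), 93 with all treated samples above saline (0.524%) and 332 with all below (1.87%), and after rescaling in 387 genes (2.18%), 194 above (1.09%) and 193 below. Of the higher genes 68 were protein coding, as were 236 of the lower genes. The following values are CPM as deposited, means are given ± SD (n = 5 saline, n = 7 HDM+Dex), and log2 fold changes are on the scale of log2(CPM + 1), which understates the change of genes near 0.

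**Figure D1:**
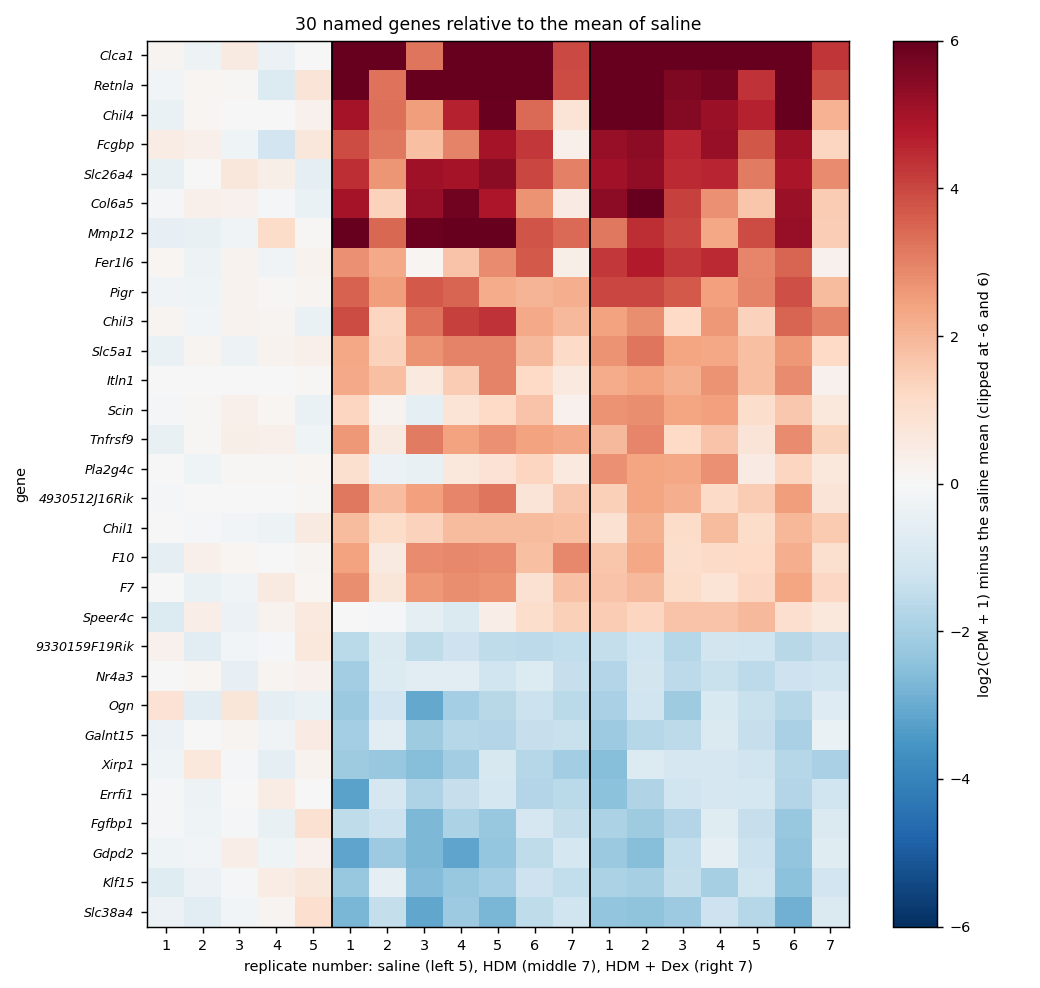
Heat map of 30 genes called on both scales with no overlap between HDM+Dex and saline samples, the 20 with the largest positive and the 10 with the largest negative log2 fold change. Columns are the 5 saline, 7 HDM and 7 HDM+Dex samples by replicate number and color is log2(CPM + 1) minus the saline mean, clipped at −6 and 6. The upper 20 genes run from 7.77 for Clca1 to 1.41 for Speer4c, and HDM+Dex replicate 7 is the palest treated column for Clca1, Chil4, Fcgbp and Fer1l6.

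Genes of goblet cells and mucus were the farthest above saline in the presence of Dex. Of 18 genes on this list, 13 were tested and 6 were higher (0.445% of all genes tested were; Clca1, Muc5ac, Slc26a4, Itln1, Fcgbp and Slc5a1), none was lower, and the median log2 fold change was 1.55 (1.72 after rescaling, where 6 were higher as well). Clca1, a secreted calcium-activated chloride channel regulator that shapes the mucus layer, had 0.671, 0.210, 1.16, 0.151 and 0.445 CPM in the saline samples and 28.1 to 764 CPM (median 457) after HDM+Dex. The lowest treated sample, replicate 7, still lay above all saline samples, and the log2 fold change was 7.77 (standard error, SE, 0.77, adjusted p = 1.43e-05). Muc5ac, the inducible gel-forming mucin of asthma, had 2.90, 3.36, 4.45, 2.92 and 9.45 CPM in the saline samples and 8.72 to 138 CPM (median 94.8) after HDM+Dex. Its groups overlapped, because replicate 7 with 8.72 CPM lay below saline replicate 5, and the log2 fold change of Muc5ac, 3.47 (SE 0.74, adjusted p = 0.0223), was 3.89 without replicate 7.

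Fcgbp, a protein of mucus, had 5.33, 4.83, 2.90, 1.16 and 6.58 CPM in the saline samples and 10.7 to 196 CPM (median 161) after HDM+Dex, without overlap (log2 fold change 4.36, adjusted p = 0.00246). Slc26a4, the anion exchanger pendrin of airway epithelium, had 2.44, 3.64, 6.67, 5.08 and 2.13 CPM in the saline samples and 33.0 to 185 CPM (median 111) after HDM+Dex. All 7 treated samples lay above all saline samples (log2 fold change 4.32, SE 0.46, adjusted p = 2.01e-05). Itln1, intelectin 1, a lectin secreted by goblet cells, was listed at 0 in 4 saline samples and at 0.0496 CPM in saline replicate 5, against 0.197 to 6.11 CPM after HDM+Dex. Slc5a1, a sodium-glucose cotransporter, had 2.19, 3.64, 2.37, 3.82 and 4.11 CPM in the saline samples and 8.46 to 37.1 CPM (median 20.2) after HDM+Dex (log2 fold change 2.31, adjusted p = 0.000698). Muc5b, the constitutive airway mucin, had 207 ± 98.2 CPM in saline and 384 ± 142 CPM after HDM+Dex, and its log2 fold change of 0.91 did not pass the test (adjusted p = 0.277), nor did those of Tff2 (1.55, adjusted p = 0.0521) and Spdef (0.75, adjusted p = 0.145), the transcription factor of goblet cells. With HDM alone, a comparison that shares the saline samples, the log2 fold change against saline was 6.15 for Clca1, 3.06 for Fcgbp, 4.24 for Slc26a4 and 2.95 for Muc5ac, and between HDM+Dex and HDM none of these 4 genes passed the test (0.964% of all genes did).

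**Figure D2:**
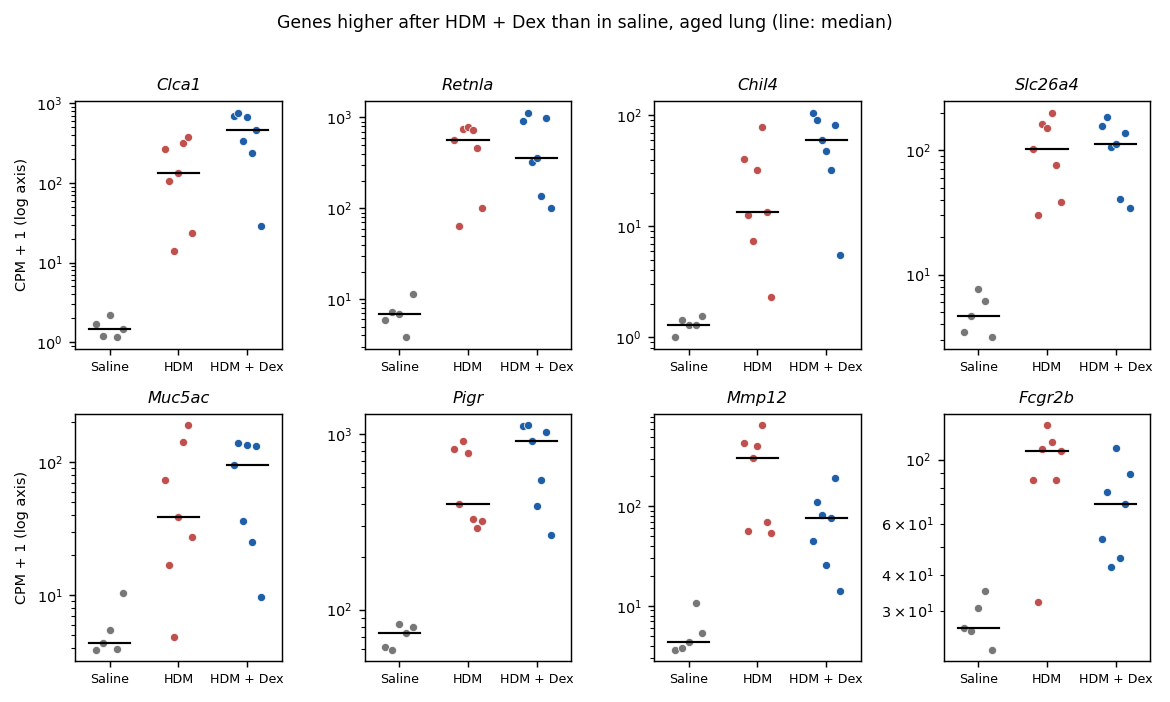
CPM + 1 on a log axis for 8 genes that were higher after HDM+Dex than in saline. Points are single mice of the saline (n = 5), HDM (n = 7) and HDM+Dex (n = 7) groups and lines are medians. Treated samples lie above every saline sample in all panels except Muc5ac, where 1 treated sample at 8.72 CPM overlaps.

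The genes of alternatively activated macrophages and chitinase-like proteins formed the other large group. Of 18 genes 17 were tested and 6 were higher (Retnla, Chil3, Chil4, Chil1, Mgl2 and Pdcd1lg2), against 0.445% of all genes tested. None was lower, and the median log2 fold change was 1.197 (1.38 after rescaling, with 4 higher against 0.490% of all). Retnla, which encodes resistin-like alpha, had 4.94, 6.30, 5.95, 2.82 and 10.3 CPM in the saline samples and 99.1 to 1132 CPM (median 359) after HDM+Dex. Its lowest treated value was again in replicate 7, and its log2 fold change was 5.91 (SE 0.65, adjusted p = 2.18e-05). Chil4, a chitinase-like protein also called Ym2, had 0, 0.421, 0.291, 0.302 and 0.546 CPM in the saline samples and 4.53 to 105 CPM (median 58.7) after HDM+Dex (log2 fold change 5.13, adjusted p = 0.000521). Chil3 (Ym1) had 149, 117, 155, 148 and 101 CPM in the saline samples and 307 to 1479 CPM (median 803) after HDM+Dex, and here replicate 7 with 1046 CPM was the second highest (log2 fold change 2.40, adjusted p = 0.0111). Reads of Chil3 and Chil4 could be split between these close paralogs in the authors' counting. Chil1, the chitinase-like protein that binds chitin without cleaving it, had 231, 211, 205, 182 and 329 CPM in the saline samples and 424 to 984 CPM (median 684) after HDM+Dex (log2 fold change 1.53, SE 0.22, adjusted p = 0.000698). Mgl2, a galactose-type lectin of macrophages and dendritic cells, and Pdcd1lg2, the checkpoint ligand PD-L2, had log2 fold changes of 1.196 and 1.64 (adjusted p = 0.0495 and 0.0455) and were not called after rescaling.

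Arg1, the arginase of these macrophages, did not pass although its groups did not overlap. Its saline values were 1.73, 0.980, 1.31, 1.21 and 0.989 CPM and its treated values ran from 3.08 to 148 CPM, a spread of over an order of magnitude (log2 fold change 3.58, SE 0.97, adjusted p = 0.0552). Mrc1, the mannose receptor, had a log2 fold change of 0.61 (adjusted p = 0.301). Against saline, HDM alone gave log2 fold changes of 5.73 for Retnla, 3.65 for Chil4, 3.02 for Chil3 and 5.31 for Arg1.

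The sequences upstream of some of these genes are shown because they can be searched for the elements bound by STAT6 and by the glucocorticoid receptor. RefSeq promoters (GRCm38.p6, 250 bases before to 50 after the start) were found for 27 of the 30 genes of the heat map. A STAT6-type element, TTC and GAA with 4 bases of any kind between them, which reads the same on both strands, occurred in 6.95% of all 32851 promoters and in those of 8.01% of genes. Among the 18 higher genes with a promoter it was present in 1, Retnla, 145 bases before the start. Among the 9 lower genes it was present in 1, Errfi1, 243 bases before one of its starts. The palindromic glucocorticoid response element, AGAACA and TGTTCT with 3 bases between them, occurred in 3 of all promoters and in none of these genes. Its first 6 bases alone, AGAACA on either strand, which overlap the full element, occurred in 18.97% of all promoters (21.3% of genes), in 8 of the 18 higher genes and in 2 of the 9 lower genes, which is a description of these windows and not of binding. Below, the 250 upstream bases are given 5′ to 3′ on the strand of the gene, with the STAT6-type element and AGAACA in capitals.
Retnla, chr16:48842359-48842608, forward strand: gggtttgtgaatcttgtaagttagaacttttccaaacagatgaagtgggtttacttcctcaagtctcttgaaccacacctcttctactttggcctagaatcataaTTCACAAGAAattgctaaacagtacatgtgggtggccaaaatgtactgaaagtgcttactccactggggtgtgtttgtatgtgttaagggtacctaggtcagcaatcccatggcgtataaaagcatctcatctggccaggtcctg
Pigr, chr1:130826434-130826683, forward strand: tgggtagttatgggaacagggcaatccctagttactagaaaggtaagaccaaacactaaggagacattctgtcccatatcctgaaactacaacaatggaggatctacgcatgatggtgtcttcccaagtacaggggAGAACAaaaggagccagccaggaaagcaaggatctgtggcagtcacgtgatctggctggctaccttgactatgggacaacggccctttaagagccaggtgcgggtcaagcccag
Errfi1, chr4:150854820-150855069, forward strand: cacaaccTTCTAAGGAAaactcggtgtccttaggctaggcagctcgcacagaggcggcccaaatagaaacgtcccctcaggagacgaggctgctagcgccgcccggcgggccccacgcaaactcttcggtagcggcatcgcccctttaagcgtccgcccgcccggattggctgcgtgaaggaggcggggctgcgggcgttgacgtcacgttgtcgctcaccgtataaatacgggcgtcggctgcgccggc
Chil3, chr3:106167565-106167814, reverse strand: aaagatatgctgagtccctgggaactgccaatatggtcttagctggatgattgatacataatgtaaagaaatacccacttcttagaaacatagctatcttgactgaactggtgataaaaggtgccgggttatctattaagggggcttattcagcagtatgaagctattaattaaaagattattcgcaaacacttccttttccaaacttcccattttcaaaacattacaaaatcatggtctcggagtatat
Chil4, chr3:106219480-106219729, reverse strand: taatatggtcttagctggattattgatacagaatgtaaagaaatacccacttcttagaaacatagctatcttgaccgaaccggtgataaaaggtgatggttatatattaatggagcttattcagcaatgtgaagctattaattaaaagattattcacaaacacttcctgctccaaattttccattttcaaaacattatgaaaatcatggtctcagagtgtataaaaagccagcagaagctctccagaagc
Chil3 and Chil4 lie in the same orientation on chromosome 3, and their upstream sequences are printed to show how near these paralogs are. In a global alignment 203 of 279 columns, or 72.8%, held the same base, and neither window held one of the capitalized elements.

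Some single genes of macrophages, picked out after their values were seen, were higher on both scales. Fcgr2b, the inhibitory Fc receptor for immunoglobulin G, had 25.1, 24.4, 29.5, 34.1 and 20.99 CPM in the saline samples and 41.5 to 108 CPM (median 69.1) after HDM+Dex (log2 fold change 1.27, SE 0.28, adjusted p = 0.0269). Msr1, a scavenger receptor, had 2.93, 3.22, 4.21, 2.97 and 3.96 CPM in the saline samples and 5.01 to 14.2 CPM (median 11.4) after HDM+Dex (log2 fold change 1.21, adjusted p = 0.0353). C3ar1, the receptor for complement fragment C3a, had 7.41, 7.07, 6.53, 7.24 and 4.40 CPM in the saline samples and 11.6 to 27.4 CPM (median 16.9) after HDM+Dex (log2 fold change 1.28, adjusted p = 0.0205). In these 3 genes replicate 7 was not the lowest treated sample, as it was for Clca1 and Chil4, and no treated sample overlapped saline. Ms4a7 and the inhibitory receptor Cd200r1 were also higher without overlap, with log2 fold changes of 1.28 and 0.83. Other macrophage genes, such as Mrc1, did not pass. Trem2, a lipid receptor of macrophages, rose by 1.504 on the log2 scale (adjusted p = 0.0444) as deposited and was the only gene of 24 tested on the list of lipid-handling and lysosomal macrophage genes that did, and none of the 24 was called after rescaling, where 13 had an unadjusted p under 0.05. With HDM alone 13 of these 24 genes were higher than saline (4.04% of all genes tested were).

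Mmp12, the macrophage elastase, had 2.65, 2.80, 3.34, 9.80 and 4.30 CPM in the saline samples and 13.2 to 192 CPM (median 75.6) after HDM+Dex. All treated samples were above all saline samples (log2 fold change 3.51, SE 0.64, adjusted p = 0.00903), and with HDM alone the log2 fold change was 5.18. Timp3, a tissue inhibitor of metalloproteinases, moved the other way, from 929 ± 376 CPM to 394 ± 93.4 CPM without overlap (log2 fold change −1.19, adjusted p = 0.0105). Of 17 metalloproteinase genes and inhibitors tested, Mmp12 and Timp3 were the 2 that passed, on both scales.

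Of 17 complement genes tested, C3 and C3ar1 were higher and Cfd, the adipocyte-derived factor D, was lower as deposited (log2 fold change −1.83, adjusted p = 0.0355) and not called after rescaling. C3, the central component, had 538, 621, 809.6, 603 and 736 CPM in the saline samples and 826 to 2838 CPM (median 1759) after HDM+Dex (log2 fold change 1.24, adjusted p = 0.0479). Pigr, the receptor that carries immunoglobulin A across epithelium, had 59.8, 58.2, 81.4, 72.8 and 79.0 CPM in the saline samples and 266 to 1129 CPM (median 918) after HDM+Dex. Its log2 fold change of 3.27 had a standard error of 0.35 (adjusted p = 2.01e-05), and the lowest treated sample had 266 CPM against 81.4 CPM in the highest saline sample. Among the immunoglobulin constant regions, Ighg2b and Ighg2c were lower (log2 fold changes −1.93 and −2.32, adjusted p = 0.0288 and 0.0402), with overlap, and Ighg2c was not called after rescaling. Ighg1 had 3.62, 35.4 and 96.1 CPM at the lowest, the median and the highest treated sample and 4.41, 24.6, 124, 30.3 and 3.07 CPM in saline (log2 fold change 0.45, adjusted p = 0.764), while HDM alone had a mean of 439 CPM. Ighe had a log2 fold change of 0.48 (adjusted p = 0.52). Immunoglobulin genes share long stretches of sequence, so their counts are uncertain.

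The 3 neighboring genes of vitamin K-dependent coagulation proteins on chromosome 8, F7, F10 and Proz, were higher. F7 (coordinates 13026034 to 13035809, GRCm38), F10 (13037308 to 13056676) and Proz (13060914 to 13076026) lie in this order on the forward strand. F7 had 9.32, 6.72, 7.78, 13.8 and 10.4 CPM in the saline samples and 17.3 to 52.4 CPM (median 23.7) after HDM+Dex (log2 fold change 1.49, adjusted p = 0.0325). F10 had 3.60, 7.70, 6.58, 5.93 and 6.73 CPM in the saline samples and 12.4 to 34.3 CPM (median 14.8) after HDM+Dex (log2 fold change 1.51, adjusted p = 0.0302). Proz, whose protein Z assists the inhibition of factor Xa, had 2.47, 4.55, 4.496, 7.54 and 8.66 CPM in the saline samples and 10.7 to 19.9 CPM (median 14.4) after HDM+Dex (log2 fold change 1.34, SE 0.23, adjusted p = 0.00526). None of the 3 genes overlapped between groups, and Proz was called in all 12 fits that left out 1 sample, against 4 for F7 and 5 for F10. The gene Thbd, which encodes the anticoagulant thrombomodulin of endothelium, was lower (416 ± 76.1 CPM in saline and 238 ± 44.3 CPM after HDM+Dex, log2 fold change −0.81, adjusted p = 0.0316). Proz and Thbd were picked out after their values were seen.

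Others of the 20 largest increases concerned vesicle fusion, actin, lipid mediators and T cell costimulation. Fer1l6, a ferlin, had 0.494, 0.140, 0.629, 0.201 and 0.594 CPM in the saline samples and 0.656 to 37.3 CPM (median 25.0) after HDM+Dex, and replicate 7 with 0.656 CPM was barely above the highest saline sample (log2 fold change 3.48, adjusted p = 0.00877). Scin, which severs actin filaments and takes part in secretion, had 0.989, 1.26, 1.64, 1.36 and 0.643 CPM in the saline samples and 2.30 to 13.8 CPM (median 10.2) after HDM+Dex (log2 fold change 1.94, adjusted p = 0.0124). For Scin the log2 fold change of HDM alone was 0.71 (adjusted p = 0.163) and that between HDM+Dex and HDM was 1.23 (adjusted p = 0.0806). Pla2g4c, a cytosolic phospholipase A2, had 0.353, 0.140, 0.435, 0.402 and 0.445 CPM in the saline samples and 0.898 to 8.07 CPM (median 5.79) after HDM+Dex (log2 fold change 1.80, adjusted p = 0.02), with 0.51 in HDM alone (adjusted p = 0.324). Speer4c, a member of a multicopy family whose reads cannot be assigned with certainty, had log2 fold changes of 1.41 after HDM+Dex and 0.19 after HDM alone, and kept its call in 3 of the 12 fits that left out 1 sample. Tnfrsf9, the costimulatory receptor 4-1BB of activated T cells, had 0.636, 1.33, 1.84, 1.71 and 0.841 CPM in saline and 2.84 to 16.1 CPM after HDM+Dex (log2 fold change 1.83, adjusted p = 0.0189). Steap4, a metalloreductase, Noxo1, an organizer of NADPH oxidase, Ptgir, the prostacyclin receptor, and Slc6a20a, an imino acid transporter, had log2 fold changes of 1.38, 1.00, 1.14 and 1.31. These 4 genes, chosen after their values were seen, showed no overlap and kept their call in all 12 fits that left out 1 sample, on both scales.

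Of 23 collagen chains tested 5 were higher and 1 was lower (0.445% and 1.44% of all genes tested were). Their median log2 fold change was 0.07, with 13 positive and 10 negative values. After rescaling 3 were higher and 1 was lower (0.490% and 0.451% of all were). Col1a1 had 92.3, 119.8, 118, 89.8 and 108 CPM in the saline samples and 145 to 240.2 CPM (median 166) after HDM+Dex (log2 fold change 0.73, SE 0.18, adjusted p = 0.0426). Col3a1 had 187, 222, 227, 162 and 123 CPM in the saline samples and 251 to 566 CPM (median 312) after HDM+Dex (log2 fold change 0.90, adjusted p = 0.0416). In HDM alone the means were 327 and 657 CPM, with log2 fold changes of 1.58 and 1.80 against saline. Between HDM+Dex and HDM they differed by −0.85 and −0.90 on the log2 scale (adjusted p = 0.027 and 0.0356). Col6a2, Col6a1 and Col5a2 rose by 0.88, 0.86 and 0.81 on the log2 scale, and of these Col6a2 was called after rescaling. When 1 sample was left out, Col1a1 kept its call in 3 and Col3a1 in 4 of the 12 fits. Col6a5, a type VI chain that was not on the list, rose from 0.723 ± 0.339 CPM to 41.6 ± 41.7 CPM, a treated spread from 3.93 to 115 CPM (log2 fold change 3.82, adjusted p = 0.0292). Col12a1, a fibril-associated chain, was lower in all treated samples, with 66.6, 37.2, 39.6, 41.1 and 71.4 CPM in the saline samples and 14.1 to 25.2 CPM (median 18.4) after HDM+Dex (log2 fold change −1.33, adjusted p = 0.00339). Tgfb1, a driver of collagen synthesis, had a log2 fold change of 0.17 (adjusted p = 0.539).

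Chemokines and cytokines were variable between treated mice, and few passed the test. None of 13 eotaxin and CC chemokine genes was called by limma on either scale, although their median log2 fold change was 0.85 (1.00 after rescaling) and 7 of them had an unadjusted p under 0.05 (10 after rescaling). Ccl11, which encodes eotaxin-1, had 2.01, 2.03, 1.69, 1.11 and 2.08 CPM in the saline samples and 2.36 to 61.1 CPM (median 14.8) after HDM+Dex and did not overlap (log2 fold change 2.34, SE 0.65, adjusted p = 0.0624). Ccl24, eotaxin-2, was at 0.247, 0.280, 0.242, 0.251 and 0.0990 CPM in saline and at 0.0474, 3.65 and 37.4 CPM at the lowest, median and highest treated sample (log2 fold change 2.32, adjusted p = 0.197). For Ccl24 replicate 5 lay below all saline samples with 0.0474 CPM, and replicate 7 lay just above them with 0.459 CPM. Ccl9 and Ccl8 had log2 fold changes of 1.35 and 2.20 (adjusted p = 0.101 and 0.126).

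Cxcl5, a chemokine that attracts neutrophils, rose by 1.95 on the log2 scale (SE 0.43, adjusted p = 0.0265), from 3.25, 4.27, 1.93, 0.151 and 0.247 CPM to 2.49 to 16.1 CPM, and replicate 7 overlapped saline. Cxcl1 had 1.09 ± 0.391 CPM in saline and 2.35 ± 1.42 CPM after HDM+Dex (log2 fold change 0.58, adjusted p = 0.234). Of 16 genes of neutrophil chemokines and granules tested, Cxcl5 was the 1 called as deposited, and after rescaling Lcn2 was called as well. The median log2 fold change of the 16 genes was −0.80 (−0.60 after rescaling), with 5 positive and 11 negative values. By limma 10 of them had an unadjusted p under 0.05, and 9 after rescaling (21.2% and 15.8% of all genes tested had). For the granule genes S100a8 and S100a9 the log2 fold changes were −1.32 and −1.499 (adjusted p = 0.103 and 0.112), and Ly6g, which defines mouse neutrophils, was listed at 0 in 6 of 7 treated samples. Of the eosinophil genes none of 6 tested was called by limma on either scale (1 at an unadjusted p under 0.05 on each). Among them Il5ra, the interleukin 5 receptor, was 28.3 and 26.8 CPM in treated replicates 4 and 7 and at most 3.81 CPM in the other 10 samples. All treated samples lay above all saline samples for Il5ra, the lowest at 1.58 CPM against 1.56 CPM (log2 fold change 1.54, SE 0.51, adjusted p = 0.112). Prg2 was 0.473 to 2.87 CPM after HDM+Dex and 0.544 to 2.31 CPM in saline.

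Of 10 T helper genes tested 2 were higher by limma as deposited and none after rescaling, where 2 had an unadjusted p under 0.05. Il1rl1, the receptor for interleukin 33, had 2.61, 2.45, 5.51, 3.07 and 2.13 CPM in the saline samples and 5.90 to 10.2 CPM (median 7.49) after HDM+Dex (log2 fold change 1.13, adjusted p = 0.0402). Ccr4, a chemokine receptor of T helper 2 cells, rose by 0.70 on the log2 scale (adjusted p = 0.0497). The cytokines were near the limit of detection, where 3 reads correspond to 0.142 to 0.279 CPM in treated and 0.106 to 0.210 CPM in saline samples. Il17a was listed at 0 in all 5 saline samples and had 0.0657 to 0.862 CPM after HDM+Dex. Il13 ranged from 0 to 0.0707 CPM in saline and to 1.22 CPM in treated samples, and Ifng to 0.339 and 1.38 CPM. These 3 genes had a mean below 1 CPM and were not tested. Nos2 had a log2 fold change of 0.65 (adjusted p = 0.351) against 2.34 for HDM alone.

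Among genes that respond to glucocorticoids, decreases outnumbered increases in mice treated with Dex. Of 29 tested genes of the receptor and its targets none was higher by limma as deposited (24 had an unadjusted p under 0.05, in either direction) and 13 were lower (1.44% of all genes tested were), and the median log2 fold change was −0.97. After rescaling 1 was higher, Lcn2, and 5 were lower, with a median of −0.80. Tsc22d3, which encodes the glucocorticoid-induced leucine zipper, had 144, 131, 219, 228 and 288 CPM in the saline samples and 56.3 to 121 CPM (median 82.3) after HDM+Dex. Every treated sample lay below every saline sample (log2 fold change −1.26, SE 0.21, adjusted p = 0.00381). Klf9, a transcription factor induced by glucocorticoids in many tissues, had 156, 143, 209, 219 and 191 CPM in the saline samples and 66.1 to 112 CPM (median 88.2) after HDM+Dex (log2 fold change −1.05, adjusted p = 0.00313). Klf15, a related factor of amino acid metabolism, had 37.2, 47.8, 58.5, 83.3 and 101 CPM in the saline samples and 10.4 to 26.9 CPM (median 15.6) after HDM+Dex (log2 fold change −1.73, adjusted p = 0.00739). Errfi1, an inhibitor of the epidermal growth factor receptor, had 254, 209.7, 256, 363 and 256 CPM in the saline samples and 47.0 to 132 CPM (median 116) after HDM+Dex (log2 fold change −1.49, adjusted p = 0.0151). These 4 genes were called on both scales and without overlap, and Cdkn1c (−1.14) was called on both scales with overlap.

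Per1, Zbtb16, Cebpd, Nfkbia, Ddit4, Glul, Cdkn1a and Sult1a1 were lower as deposited, with log2 fold changes from −1.57 for Zbtb16 to −0.78 for Nfkbia, and were not called after rescaling. Per1 had 91.0, 127, 104, 222 and 163 CPM in the saline samples and 37.2 to 86.8 CPM (median 65.7) after HDM+Dex (log2 fold change −1.09, adjusted p = 0.0386). Zbtb16 varied widely in saline, where it had 60.1, 107, 311, 359 and 444 CPM, and had 41.5 to 107 CPM after HDM+Dex. Fkbp5, which encodes a cochaperone of the receptor and is a usual readout of its activity, had 15.1, 19.7, 52.3, 55.3 and 174 CPM in the saline samples and 22.7 to 47.5 CPM (median 27.9) after HDM+Dex. The saline samples covered the range of all treated samples for Fkbp5, and its log2 fold change of −0.50 did not pass (SE 0.41, adjusted p = 0.462). Nr3c1 itself had 213 ± 32.1 CPM in saline and 158 ± 36.6 CPM after HDM+Dex (log2 fold change −0.45, adjusted p = 0.117). With HDM alone, which shares the saline samples, the log2 fold changes were −1.02 for Tsc22d3, −1.11 for Klf9, −1.79 for Klf15, −1.69 for Errfi1 and −0.33 for Fkbp5, and none of these 5 genes passed the test between HDM+Dex and HDM.

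**Figure D3:**
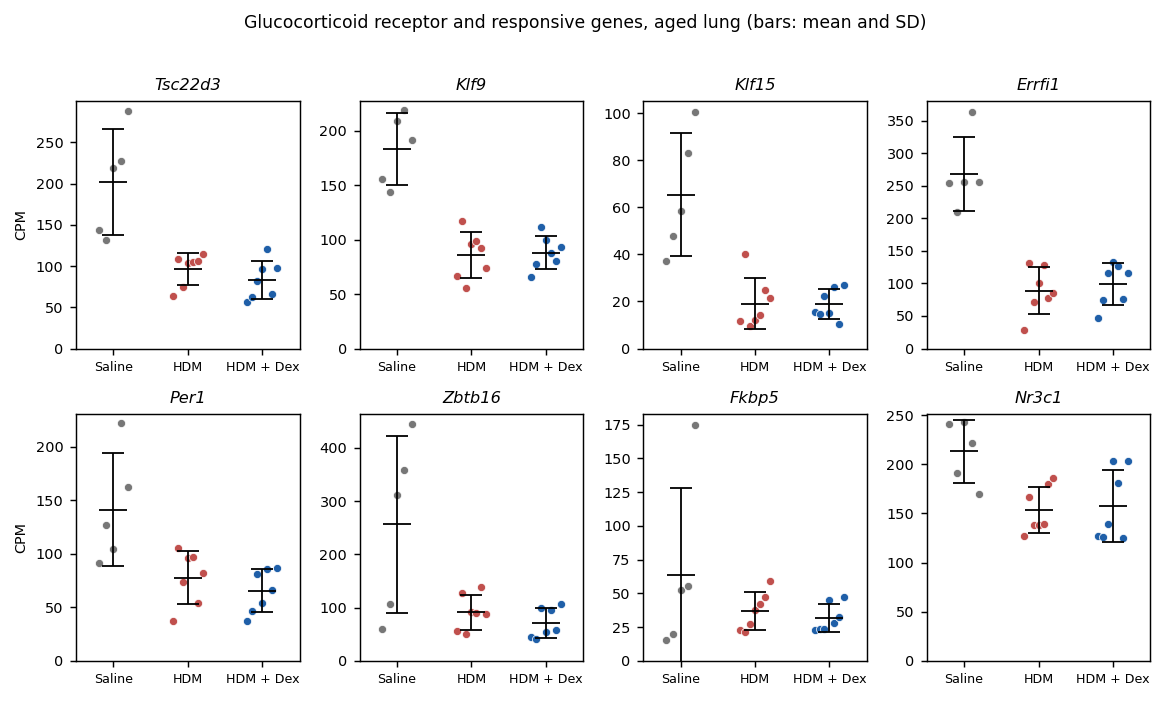
CPM of the glucocorticoid receptor gene Nr3c1 and of 7 genes that respond to glucocorticoids. Points are single mice of the saline (n = 5), HDM (n = 7) and HDM+Dex (n = 7) groups and bars give the mean and SD. For Tsc22d3, Klf9, Klf15, Errfi1 and Per1 all HDM+Dex points lie below all saline points, while Fkbp5 overlaps, with saline from 15.1 to 174 CPM.

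Immediate-early genes, which respond to stimuli without new protein synthesis, and clock genes held decreases too. Of 23 immediate-early genes tested 5 were lower as deposited and 2 after rescaling (1.44% and 0.451% of all genes tested were). None was higher, and the median log2 fold change was −0.79. Nr4a3, an orphan nuclear receptor, had 32.9, 36.3, 23.3, 37.8 and 40.2 CPM in the saline samples and 9.09 to 15.3 CPM (median 12.8) after HDM+Dex (log2 fold change −1.40, SE 0.21, adjusted p = 0.00188). Jun, a subunit of AP-1, had 441, 561, 335, 421 and 322 CPM in the saline samples and 182 to 302 CPM (median 216) after HDM+Dex (log2 fold change −0.86, adjusted p = 0.0124). Fosb had 12.4, 35.4, 5.56, 25.8 and 7.42 CPM in saline and 2.01 to 5.64 CPM after HDM+Dex (log2 fold change −1.66, adjusted p = 0.0202), and Btg2 and Klf4 fell by 0.80 and 0.79 on the log2 scale. Fosb, Btg2 and Klf4 were not called after rescaling. Of 19 clock genes, Per1, Cry1, Cry2 and Rora were lower as deposited (1.44% of all genes tested were). Only Rora was called on both scales (log2 fold change −0.66, adjusted p = 0.0325).

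Enzymes of xenobiotic metabolism, many of them made by club cells, held a set of decreases. Of 31 genes tested 6 were lower (1.44% of all genes tested were) and none was higher. The median log2 fold change was −0.75 (−0.60 after rescaling, with 2 lower against 0.451% of all). Fmo2, the flavin monooxygenase of lung, had 694, 607, 796, 505 and 736 CPM in the saline samples and 182 to 466 CPM (median 308) after HDM+Dex (log2 fold change −1.07, adjusted p = 0.0334). Pon1, a paraoxonase, had 31.8, 40.2, 24.0, 17.8 and 19.1 CPM in the saline samples and 0.790 to 15.1 CPM (median 4.55) after HDM+Dex (log2 fold change −2.003, SE 0.48, adjusted p = 0.0375) and was not called after rescaling. Gstm2, a glutathione transferase, fell by 0.84 on the log2 scale and was, with Fmo2, 1 of the 2 genes called on both scales. With HDM alone 26 of the 31 genes were lower than saline (21.2% of all genes tested were), with a median of −1.30. Scgb1a1, the secretoglobin that defines club cells, had 4636 ± 594 CPM in saline and 2265 ± 1319.9 CPM after HDM+Dex, with the lowest value in treated replicate 6 (log2 fold change −1.31, adjusted p = 0.143). On the list of airway secretory cells, Sult1d1 was the 1 gene of 17 called, as deposited (log2 fold change −1.61, adjusted p = 0.0472). Bpifa1, which encodes the secreted airway protein SPLUNC1, had a log2 fold change of −0.84 (SE 0.73, adjusted p = 0.488), and its 7 treated values from 0.984 to 43.2 CPM overlapped with saline.

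No gene of motile cilia passed the test in mice that received Dex. Of 41 tested none was called by limma on either scale, 5 had an unadjusted p under 0.05 as deposited and 1 after rescaling, and the median log2 fold change was −0.44 (−0.23 after rescaling). With HDM alone all 41 were lower than saline as deposited (21.2% of all genes tested were). Their median log2 fold change was −1.65 (−1.42 after rescaling), and the median difference between HDM+Dex and HDM was 1.23 as deposited. The summed level of the listed cilium genes was 1653 to 2369 CPM in saline, 330.4 to 1370.1 CPM after HDM and 963 to 2123 CPM after HDM+Dex. Drc3, a component of the dynein regulatory complex picked out after its values were seen, had 17.1, 23.4, 21.7, 20.8 and 21.3 CPM in the saline samples and 7.90 to 18.3 CPM (median 14.6) after HDM+Dex (log2 fold change −0.57, adjusted p = 0.191), and it was 1.08 higher on the log2 scale than after HDM alone (adjusted p = 0.028). Foxj1, the transcription factor of ciliated cells, had 43.6 ± 15.4 CPM in saline and 42.1 ± 9.80 CPM after HDM+Dex, with a 95% confidence interval of the log2 fold change from −0.61 to 0.60.

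Of 26 endothelial genes 2 were lower by limma as deposited, Ednrb and Cd93 (−1.01 and −0.59), against 1.44% of all genes tested. None was called after rescaling, where 7 had an unadjusted p under 0.05 (15.8% of all had). The median log2 fold change was −0.39 (−0.19 after rescaling). Some single genes outside this list were lower on both scales. S1pr1, a receptor for sphingosine 1-phosphate that keeps the endothelial barrier, had 247, 174, 326, 290.2 and 239.7 CPM in the saline samples and 93.5 to 149 CPM (median 124) after HDM+Dex (log2 fold change −1.08, SE 0.20, adjusted p = 0.0111). Fzd4, a Wnt and norrin receptor, and Pdgfra, the receptor of lung fibroblasts, fell by 0.91 and 0.77 on the log2 scale. In these 3 genes, chosen after their values were seen, every treated sample lay below every saline sample. Pecam1 and Cdh5, which define endothelium, had log2 fold changes of −0.40 and −0.66 (adjusted p = 0.112 and 0.0633). Cav1, which forms caveolae in type 1 alveolar cells and endothelium, fell by 0.73 on the log2 scale (adjusted p = 0.043) and was the 1 gene of 19 on the type 1 list that was called.

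Among the 10 largest decreases, Slc38a4, an amino acid transporter, had 11.8, 9.45, 13.8, 17.2 and 31.6 CPM in the saline samples and 1.22 to 8.0 CPM (median 2.62) after HDM+Dex (log2 fold change −1.96, SE 0.37, adjusted p = 0.0111). Fgfbp1, which releases fibroblast growth factors from matrix, had 5.08, 4.48, 5.12, 3.72 and 11.1 CPM in the saline samples and 0.359 to 2.88 CPM (median 0.926) after HDM+Dex (log2 fold change −1.58, adjusted p = 0.0129). Galnt15, a transferase that starts O-linked glycans, had 22.9, 28.8, 32.7, 25.0 and 41.6 CPM in the saline samples and 5.84 to 22.2 CPM (median 9.34) after HDM+Dex (log2 fold change −1.43, adjusted p = 0.0117). Ogn, the matrix proteoglycan osteoglycin, and Gdpd2, a glycerophosphodiesterase, had log2 fold changes of −1.42 and −1.60. The gene 9330159F19Rik had 5.47, 2.42, 3.93, 4.26 and 7.37 CPM in saline and at most 1.58 CPM after HDM+Dex (log2 fold change −1.38, adjusted p = 0.000978). Xirp1, a protein of striated muscle, fell by 1.46 on the log2 scale (adjusted p = 0.0155). On the list of heart muscle genes all 32 tested had a negative log2 fold change, with a median of −1.07 (−0.85 after rescaling), but only Xirp1 and Myoz2 were called, and only Xirp1 after rescaling. The summed heart muscle level ran from 1422 to 2842 CPM in saline and from 245 to 3115 CPM after HDM+Dex, and the part of the amount of heart muscle in these differences was not tested.

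On several lists no gene was called. By limma no gene was called on either scale among 12 lymphoid chemokines and lymphotoxins (3 at an unadjusted p under 0.05, 4 after rescaling), 18 genes of antigen presentation (0 and 4), 20 interferon-stimulated genes (0 and 0), 24 genes of cell division (0 and 2), 17 of smooth muscle (4 and 4), 9 erythroid genes (0 and 0), 3 of mast cells and basophils (1 and 1), 19 of B and plasma cells (1 and 0) and 15 small non-coding RNAs (5 and 4). Among 12 acute-phase and antimicrobial genes none was called as deposited, where 4 had an unadjusted p under 0.05, and 1 was higher after rescaling. That gene was Lcn2, lipocalin 2, which had 74.2 ± 54.8 CPM in saline and 206 ± 105 CPM after HDM+Dex, with 171 CPM in saline replicate 5 (log2 fold change 1.51). Single genes were called on the remaining lists. They were Tnfrsf9 of 24 T cell genes, Chil1 of 20 genes of type 2 alveolar cells, Il1rl1 of 16 alarmin and interleukin 1 family genes, Myh1 (−0.64) of 10 skeletal muscle genes, Upk1b (−0.90) of 10 mesothelial genes and Fbln2 (−1.16) of 22 matrix genes. Of 10 adipocyte genes Plin1 (−1.35) and Cfd were lower, and of 20 genes of senescence and p53 Mmp12 was higher and Cdkn1a and Trp53inp1 (−1.01) were lower. The 4 genes Myh1, Upk1b, Fbln2 and Plin1 were not called after rescaling, nor were Cdkn1a and Trp53inp1.

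**Figure D4:**
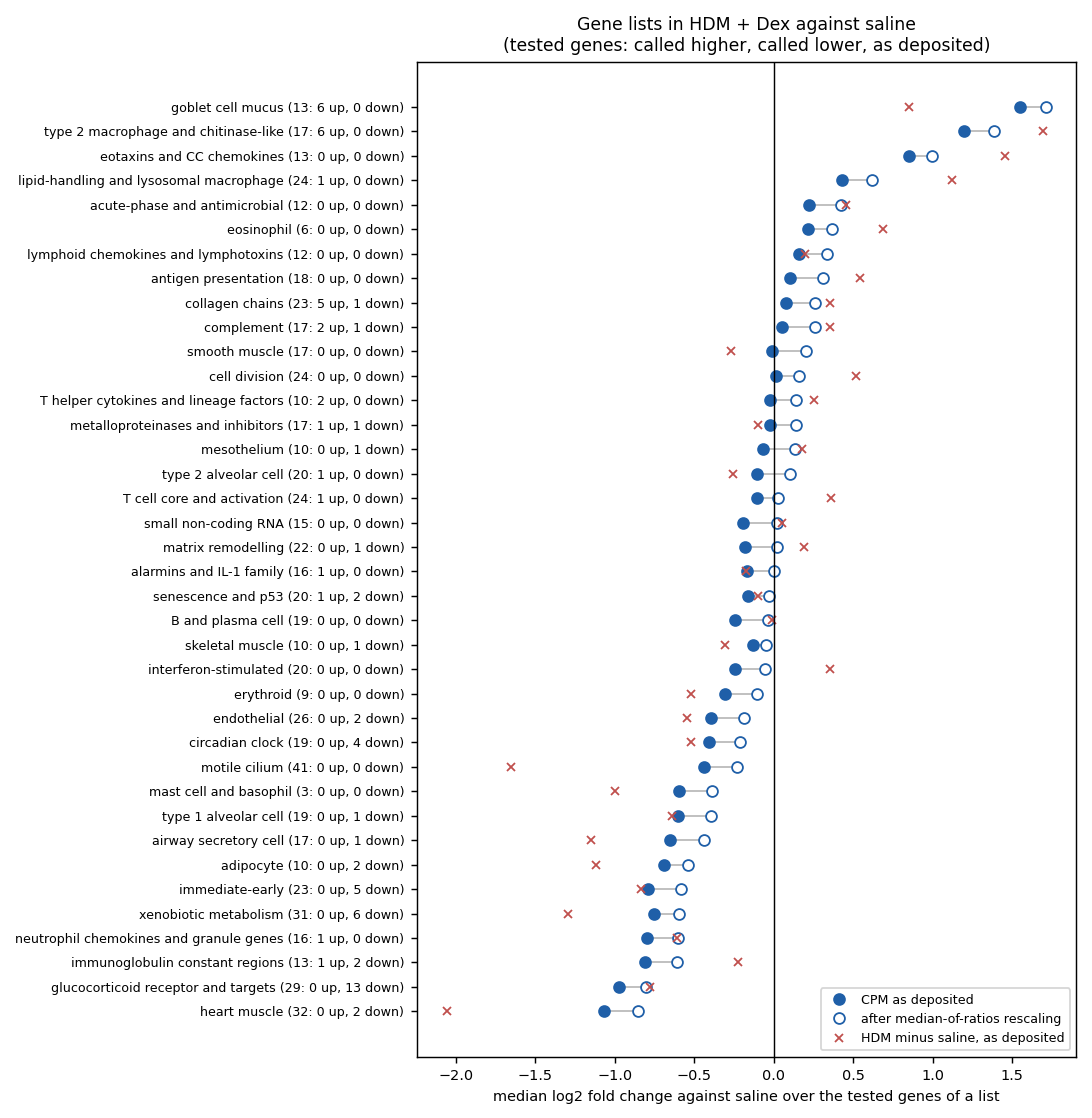
Median log2 fold change of HDM+Dex against saline over the tested genes of 38 lists, as deposited (filled circles) and after median-of-ratios rescaling (open circles), with HDM against saline as crosses. Labels give the number of genes tested and called. Goblet cell genes lie highest (1.55 and 1.72), heart muscle genes (−1.07 and −0.85) and glucocorticoid-responsive genes (−0.97 and −0.80) lowest, and rescaling moves all lists to the right.

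The comparison was repeated in samples of similar 7SL share. When samples above 25% were left out, 3 HDM+Dex samples (replicates 4, 5 and 7) and all 5 saline samples remained. The 3 treated samples were all female and include replicate 7, which stood apart, while saline held 3 males and 2 females. The groups of this subset therefore differ in sex as well. After rescaling 27 genes were called in it, 19 higher and 8 lower. Of the 30 genes of the heat map all kept their direction in these samples, which is no independent check. They had been chosen for no overlap between the same samples, and this largely fixes the direction in any subset. Of them, 8 of the 20 increases (Clca1, Retnla, Chil4, Chil3, Chil1, Slc26a4, Slc5a1 and Pigr) and 2 of the 10 decreases (Errfi1 and Nr4a3) were called. The rescaled log2 fold change was 6.68 for Clca1 (all 12 samples 7.85), 4.64 for Retnla (6.09), 3.46 for Slc26a4 (4.49) and 2.44 for Pigr (3.48), which were called, and 3.36 for Fcgbp (4.53), 2.54 for Mmp12 (3.68), 2.47 for Fer1l6 (3.58) and 1.31 for Scin (2.07), which were not. It was −0.95 for Klf9 (−0.84), −1.07 for Errfi1 (−1.28) and −1.37 for Nr4a3 (−1.198), which were called, and −0.89 for Tsc22d3 (−1.04) and −1.44 for Klf15 (−1.52), which were not. Of 13 goblet cell genes tested 3 were higher in this subset, as were 4 of 17 macrophage and chitinase-like genes. Of 29 glucocorticoid-responsive genes 3 were lower, as was 1 of 23 immediate-early genes (0.152% of all genes tested were called, in either direction). No collagen chain was higher and no gene of xenobiotic metabolism was lower in this subset. In males (3 treated and 3 saline) the rescaled log2 fold change was 8.85 for Clca1, 5.59 for Slc26a4 and 4.34 for Pigr, and in females (4 treated and 2 saline) it was 7.07, 3.41 and 2.78. A test of the difference between the sexes called none of the 17744 genes by limma on either scale (1321 at an unadjusted p under 0.05 as deposited and 1020 after rescaling). All 3 treated males but only 1 of 4 treated females had a 7SL share above 25%, so sex and 7SL share cannot be told apart among them.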

How the data were processed

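Poly(A) RNA of the left lung lobe was sequenced from 24 mice, of which 12 enter the comparison and 7 aged HDM mice the shared fit. By the methods, the authors made stranded libraries, sequenced paired ends and used a Picard-STAR-limma pipeline, and the processing notes with the labels name FastQC, STAR, DESeq2 and the build mm9. The authors deposited CPM, each value raised by 0.0001, and a value equal to 0.0001 is written here as listed at 0. The coordinates in the table follow GRCm38, since 23142 of 23276 symbols found in GENCODE M21 had the same start. Of values below 20 reads, 80.8% to 85.3% lay within 0.05 reads of a whole number, so reads were estimated fractionally and no count test was run.

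Genes averaging 1 CPM or more in the 24 samples were tested on log2(CPM + 1) with limma 3.58.1 (R 4.3.3; lmFit and eBayes with a trend) across the 19 aged samples, with Benjamini-Hochberg adjustment over the 17744 genes. Testing was repeated after median-of-ratios rescaling over 18616 genes. The p-values set the difference between group means against the spread within groups. That spread was pooled over the 19 aged samples, HDM alone included, and moderated across genes. The fitting code was also run on simulated data, with the same setting of the spread for all genes. The simulation held no difference in 7SL share or sex and no outlying sample, so it checks the code and not those features. Named genes were the 20 largest increases and 10 largest decreases called on both scales without overlap, and up to 4 called members of each list were named besides a fixed set from the study. Further genes were picked out after their values were seen. The comparison, its members and the 38 gene lists were chosen with earlier results of these data known, so no list count is independent support. Sample measures were compared with two-sided exact permutation tests, using Python 3.11.15 and scipy 1.17.1. The 3-read limits cover counting error only. Alternatives covered the pseudocount, filter, normalization, samples in the fit, sex, 7SL share, replicate block and leaving out each sample. Sequences were those of RefSeq promoters on GRCm38.p6.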

Additional observations from a re-analysis of the deposited data

Results flagged for a closer look

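In 68 groups of 5 or 7 samples the highest and the lowest value were compared with the next one by Dixon's criterion, and 10 stood apart. Chance alone would give about 3.4 if the groups were independent. They are not, since genes of the same mice enter many of them, so the 2 numbers cannot be compared directly. Of these, 5 were the lowest value of HDM+Dex replicate 7 among the 7 treated mice, namely Clca1 at 28.1 CPM, Chil4 at 4.53 CPM, Fcgbp at 10.7 CPM, Fer1l6 at 0.656 CPM and Itln1 at 0.197 CPM. Replicate 7 was also low in Arg1 (3.08 CPM), Bpifa1 (0.984 CPM) and Cxcl5 (2.49 CPM), while Chil3 stood at 1046 CPM and Fcgr2b at 88.5 CPM. Without it the log2 fold change of Clca1 was 8.35, the log2 fold change of Chil4 was 5.63, the log2 fold change of Fcgbp was 4.87 and the log2 fold change of Fer1l6 was 4.02, while the log2 fold change of Itln1, which depends on the pseudocount, was 2.36. HDM+Dex replicate 4 had the highest share of mitochondrial transcripts among treated mice, 11.1% of CPM. In saline, replicate 2 had the highest share of 7SL RNA, 18.1%, and the lowest Pla2g4c, 0.140 CPM. Saline replicate 5 was the only saline sample with a value for Itln1, 0.0496 CPM, and had the highest Fgfbp1, 11.1 CPM.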

How the results depend on the processing

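The 30 genes of the heat map gave 1011 values over 34 alternative settings, of which 810 stayed past the threshold in the same direction, 201 lost the call and 0 changed direction. These genes had been chosen from the same samples as called on both scales without overlap. That choice largely fixes their direction and favors kept calls, so the tally is no independent support. The alternatives within 1 sex, with sex and rescaling together, with 7SL share under 25% and rescaling together, and leaving out samples after rescaling were chosen after seeing the data. The number of genes called, 335 (79 higher, 256 lower), depended on most settings, and the cause was not tested. It was 213 without a filter on low values (159 lower), 167 after median-of-ratios rescaling (80 lower), 178 after quantile normalization (79 lower), 194 without 7SL and ribosomal RNA genes (82 lower), 519 with only the 12 samples (403 lower), 190 with all 24 samples (117 lower), 221 without a trend (157 lower) and 5471 with sample quality weights (476 higher, 4995 lower). A pseudocount of 0.1 CPM gave 164 lower genes and one of 5 CPM gave 392. An adjusted p under 0.01 left 30 genes (18 higher, 12 lower), and a log2 fold change of at least 1 in size left 138 (77 lower). With sex as a covariate 1929 were called (180 higher, 1749 lower), and 220 were higher after rescaling. Only males gave 2196 (166 higher, 2030 lower; after rescaling 145 higher and 86 lower), and only females gave 9 (2 higher, 7 lower; after rescaling 0 by limma, with 1598 at an unadjusted p under 0.05), the latter with 2 saline samples. With 7SL share as a covariate 34 were called (28 higher, 6 lower), and in samples under 25% 28 (21 higher, 7 lower), or 27 after rescaling (19 higher, 8 lower). Leaving out 1 sample gave 66 to 772 genes, 24 to 129 higher and 39 to 643 lower, with the lowest total without saline replicate 3, the fewest higher genes without HDM+Dex replicate 2 and the most genes without HDM+Dex replicate 7.

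Of all listed genes 67 were called, against 41 without a filter, 35 after rescaling, 39 after quantile normalization, 40 without 7SL and ribosomal RNA genes, 102 with only the 12 samples, 267 with quality weights, 138 with sex as a covariate, 9 with 7SL share as a covariate, 13 in samples under 25% (12 after rescaling), 6 in females (0 after rescaling) and 167 in males. Leaving out 1 sample gave 21 to 102. The share of all genes tested that was called changed as well, so these counts are not results about the lists. It was 1.89% as deposited, 0.941% after rescaling, 10.9% with sex as a covariate, 12.4% in males and 30.8% with quality weights. Without HDM+Dex replicate 7 the genes called were 9 of 13 for goblet cells, 8 of 17 for type 2 macrophages and 14 of 29 for glucocorticoid targets (4.35% of all genes tested were). The log2 fold change of Fkbp5 reversed to 0.072 with 7SL share as a covariate. The difference in 7SL share was 8.93 to 12.3 percentage points when 1 sample was left out, and passed 0.05 no longer without saline replicates 1, 3 or 5 (9.88, 9.85 and 10.1 points).

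Replicate numbers shared by the groups showed no sign of pairing HDM+Dex with saline samples. Deviations from the group means correlated between −0.23 and 0.01 for same-numbered samples and between −0.25 and 0.31 for the others. So few pairs cannot settle whether a block was shared, and pairs with HDM samples were not checked. With the replicate block 898 genes were called (782 lower), 112 of them listed, and with the block and rescaling 142 (55 lower), 30 of them listed. Depth limited genes under about 0.279 CPM in the shallowest treated sample.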
